A study of Mus musculus with 10 samples.

Results

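The 10 imprinted genes followed here are *H19*, *Igf2*, *Igf2r*, *Cdkn1c*, *Peg3*, *Dlk1*, *Meg3*, *Mest*, *Plagl1* and *Grb10*, 10 of the 55401 gene rows in the count data. They were taken by symbol, each with exactly 1 row, and compared between *Mir25* KO and NTC tumors. The list was chosen with the KO against NTC values of these same tumors already known, so its fold changes between the groups are given as a description and carry no p-value. B16F10 is a mouse melanoma cell line. In total 10 tumors were sequenced, 5 grown from *Mir25* knockout (KO) cells and 5 from cells that received a non-targeting control (NTC), all under the skin of adult female C57BL/6J mice and all taken on day 15. Every mouse, in both groups, had GVAX, which is irradiated B16 cells that secrete GM-CSF (1000000 cells on days 1 and 4), and anti-PD-1 antibody at 10 mg/kg on days 6, 9 and 12. The labels give 50000 injected tumor cells, and the methods give another number. The study made its knockout lines both with guide RNAs carried by lentivirus and as single clones. The labels do not say which line these tumors came from, so the loss of *Mir25* and a difference between cell lines cannot be told apart, and no tumor had a read on *Mir25* itself with which to check the deletion.

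Imprinted genes are expressed mainly from the copy inherited from 1 parent, and many of them set the growth of the fetus. The paternally expressed *Igf2* encodes insulin-like growth factor 2, *Igf2r* the receptor that clears it, and *H19* a maternally expressed long non-coding RNA next to *Igf2*. *Cdkn1c* encodes p57, an inhibitor of cyclin-dependent kinases, and *Grb10* an adaptor protein that dampens insulin and IGF signaling. *Plagl1* and *Peg3* encode zinc finger proteins, *Dlk1* a membrane protein of the Notch ligand type, *Meg3* the non-coding RNA beside it, and *Mest* a protein of the alpha/beta hydrolase fold. In most tissues these genes fall to low levels after birth, while some persist in stromal and muscle cells. The counts do not tell the parental copies apart, so nothing here measures imprinting itself.

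In GENCODE M21 on GRCm38, *H19* (ENSMUSG00000000031.16, chromosome 7, 142575529 to 142578143, minus strand), *Igf2* (ENSMUSG00000048583.16, 142650766 to 142666816) and *Cdkn1c* (ENSMUSG00000037664.13, 143458339 to 143461050) lie in 1 region, with 72.6 kb between *H19* and *Igf2*. *Dlk1* (ENSMUSG00000040856.17) and *Meg3* (ENSMUSG00000021268.17) are 77.7 kb apart on chromosome 12. The other members stand in separate places, *Peg3* on chromosome 7, *Mest* on chromosome 6, *Plagl1* on chromosome 10, *Grb10* on chromosome 11 and *Igf2r* on chromosome 17.

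The deleted gene makes miR-25-3p, which binds matching sites in 3′ UTRs through its seed, bases 2 to 8. The 3′ UTRs of the 8 protein-coding members were therefore searched on the sense strand for the 7 bases that pair with this seed, GTGCAAT, taking the longest 3′ UTR of each gene. *Cdkn1c* was the member with a match, and the other 7 coding members had none. Of 12885 protein-coding genes that passed the count filter, 7.77% held the same 7 bases. The miRNA (RefSeq, GRCm38.p6, chr5:138165332-138165353, minus strand) is printed with its seed in capitals, and the *Cdkn1c* stretch (GRCm38, chr7:143458855-143458883, minus strand, in the 3′ UTR) with the matching bases in capitals.
miR-25-3p: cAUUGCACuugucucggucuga
*Cdkn1c* site: gaaatctgaaaactGTGCAATgtattgag
A match of these letters is a description of the sequence, and whether miR-25 acts on it was not measured here. *H19* and *Meg3* code for no protein and have no 3′ UTR. *H19* is also the host of a miRNA, and its mature forms (RefSeq, GRCm38.p6, minus strand, seeds in capitals) come from chr7:142577112-142577133 and chr7:142577078-142577099, inside the *H19* gene.
miR-675-5p: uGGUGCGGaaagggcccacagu
miR-675-3p: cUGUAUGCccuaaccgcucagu
The 2 seeds differ from each other and from that of miR-25-3p. The separate row for *Mir675* had 0 reads in all 10 tumors. *Mir675* shares 84 exon bases with *H19* on the same strand. Under the default rule of HTSeq, reads on shared bases are set aside as ambiguous, so this 0 does not measure the miRNA. The *H19* values below are the counts on the *H19* row.

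NTC replicate 1 stood apart from the other libraries before any gene was compared. It had 11896643 reads on genes, against 23243707 to 28682130 in the other 9. Reads outside genes made up 53.9% of its reads, against 20.6% to 32.8%, and 33193 genes had a count, against 22192 to 25435. Autosomal genes without a read in any other library held 0.957 reads per kilobase of exon in NTC replicate 1, while the same measure in each other library was 0.0350 to 0.103. Fold changes from edgeR's fit without covariates are given with and without this tumor. Values are counts per 1000000 reads (CPM) after edgeR's TMM normalization, and each tumor is from 1 library.

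The 10 genes fell into 3 kinds in these tumors, a division made after the values were seen. *Plagl1*, *Igf2r* and *Mest* varied least from tumor to tumor, and the highest of 10 tumors was at most 2.53 times the lowest. *H19*, *Grb10*, *Cdkn1c*, *Peg3* and *Meg3* were low on average and varied widely, together, from tumor to tumor. *Igf2* and *Dlk1* were at or near 0. Per kilobase of exon, the median level over the 10 tumors was 27.6 CPM for *Plagl1* and 27.5 CPM for *Igf2r*, whose ranges overlap. It was 2.37 for *Mest*, 1.59 for *H19* and 1.14 for *Grb10*, which overlap each other in range but not the first pair, since the lowest *Plagl1* level was 18.0 and the highest *H19* level 9.15. It was 0.343 for *Cdkn1c*, 0.0776 for *Peg3* and 0.0458 for *Meg3*, again with overlapping ranges.

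*H19*, the non-coding RNA, had 9.06, 5.35, 2.09, 7.82 and 22.5 CPM in KO replicates 1 to 5 and 20.2, 0.0657, 2.46, 0.285 and 1.74 CPM in NTC replicates 1 to 5. KO replicate 5 and NTC replicate 1 were the highest, NTC replicates 2 and 4 the lowest, with 2 and 7 reads, and the groups overlapped. The mean was 9.37 ± 7.81 CPM in KO tumors (SD, n = 5) and 4.95 ± 8.59 CPM in NTC tumors (SD, n = 5), so the difference was smaller than the spread of either group. In edgeR's fit the log2 fold change was 1.01 (standard error 1.16). Without NTC replicate 1 the NTC mean was 1.14 ± 1.15 CPM (SD, n = 4), the log2 fold change 2.99 (standard error 0.92), and KO replicate 3 still lay below NTC replicate 3. Without KO replicate 5 it was 0.38.

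**Figure D1:**
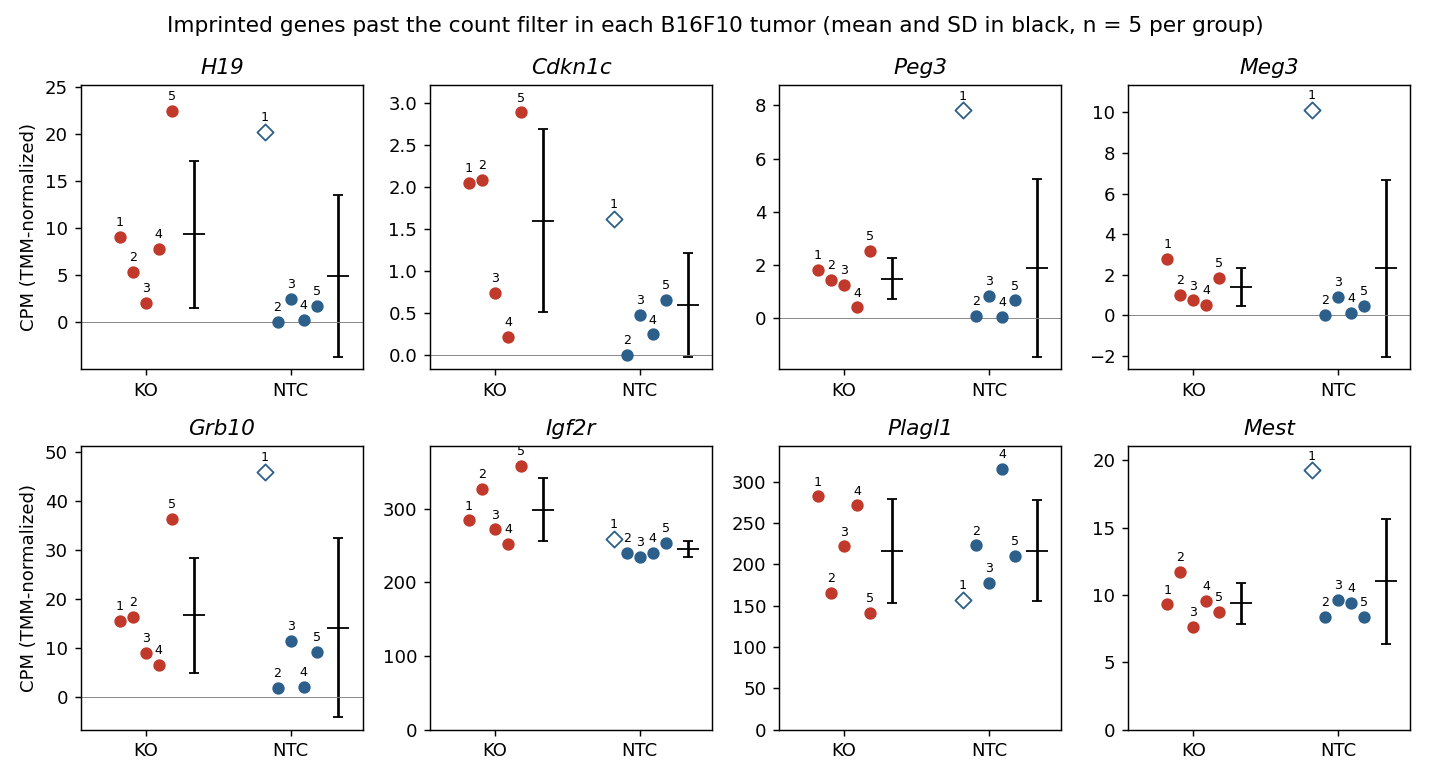
Each panel shows 1 imprinted gene, with CPM on the y axis and the group on the x axis. Points are tumors, numbered by replicate, the open diamond is NTC replicate 1, and the black bars give the mean and SD (n = 5). In *H19*, *Peg3*, *Meg3* and *Grb10* NTC replicate 1 lies far above the other NTC tumors, while *Igf2r* runs from 235 to 357 CPM and *Plagl1* from 141 to 315 CPM.

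*Cdkn1c*, the growth inhibitor with the seed match, had 2.05, 2.09, 0.741, 0.216 and 2.89 CPM in KO tumors and 1.62, 0, 0.473, 0.244 and 0.659 CPM in NTC tumors, in replicate order. KO replicates 1, 2 and 5 lay above every NTC tumor, and KO replicate 4 lay below 4 of the 5. The means were 1.597 ± 1.09 and 0.599 ± 0.620 CPM (SD, n = 5 each), and the log2 fold change was 1.58 (standard error 0.93), or 2.15 (0.88) without NTC replicate 1. NTC replicate 2 had no read on it, which at 3 reads for that library is a level under 0.0984 CPM. An antisense gene shares 30.7% of the exon bases of *Cdkn1c*, and since the strand setting of the counting is not given, the part of those reads that belongs to *Cdkn1c* is uncertain.

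*Grb10*, the adaptor that dampens insulin signaling, had 15.5, 16.3, 9.06, 6.52 and 36.3 CPM in KO tumors and 45.8, 2.00, 11.5, 2.07 and 9.30 CPM in NTC tumors. KO replicate 5 and NTC replicate 1 were again the highest, and NTC replicates 2 and 4 the lowest. The means of 16.7 ± 11.7 and 14.1 ± 18.2 CPM (SD, n = 5 each) differed by less than either SD. The log2 fold change was 0.28 (standard error 0.82), and 1.39 (0.64) without NTC replicate 1. It was -0.21 without KO replicate 5, so leaving out 1 tumor turned its direction, and 0.0 without NTC replicate 2 or without NTC replicate 4.

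*Peg3* had 1.80, 1.44, 1.25, 0.396 and 2.53 CPM in KO tumors and 7.81, 0.0657, 0.820, 0.0407 and 0.659 CPM in NTC tumors. *Meg3* had 2.79, 1.03, 0.741, 0.505 and 1.87 CPM in KO tumors and 10.1, 0.0328, 0.915, 0.122 and 0.486 CPM in NTC tumors. For both genes NTC replicate 1 was the highest of all 10 tumors, and NTC replicates 2 and 4 were the lowest, with 1 to 3 reads. The direction of the difference changed when NTC replicate 1 was left out. Over 10 tumors the log2 fold change was -0.20 (standard error 1.12) for *Peg3* and -0.63 (1.18) for *Meg3*, and without that tumor it was 1.84 (0.78) and 1.76 (0.78). At the density seen on genes that are silent elsewhere, the long exons of *Peg3* would hold 12.7 of its 58 reads in NTC replicate 1 and those of *Meg3* 17.3 of its 75, against 2.35 of 150 for *H19*.

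*Igf2r*, the receptor that takes up IGF2, had 284, 327, 272, 252 and 357 CPM in KO tumors and 258, 239.5, 235, 239.5 and 254 CPM in NTC tumors. The NTC tumors lay within a narrow band, 4 of the 5 KO tumors lay above all of them, and KO replicate 4 lay inside it. The means were 298 ± 42.9 and 245 ± 10.3 CPM (SD, n = 5 each). The log2 fold change was 0.28 (standard error 0.10) and stayed at 0.27 (0.10) without NTC replicate 1, the smallest error among these genes. Exons of *Igf2r* share no base with *Airn*, the antisense RNA of that locus, which had 6.54 ± 2.30 CPM in KO and 6.52 ± 2.36 CPM in NTC tumors (SD, n = 5 each).

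*Plagl1* had 282, 165, 221, 271 and 141 CPM in KO tumors and 157, 223, 177, 315 and 211 CPM in NTC tumors. KO replicate 5, the highest tumor for *H19*, was the lowest for *Plagl1*, and NTC replicate 4 was the highest. The group means were close, 216 ± 62.6 and 217 ± 61.0 CPM (SD, n = 5 each), and the log2 fold change was 0.00 (standard error 0.23), or -0.13 (0.24) without NTC replicate 1.

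*Mest* had 7.61 to 11.7 CPM in KO tumors and 8.36 to 9.65 CPM in NTC replicates 2 to 5, which overlap, and 19.3 CPM in NTC replicate 1. That value holds the normalization factor of the library, 0.628. Without it the 143 reads are 12.0 CPM, against 8.97 to 10.7 in the other NTC tumors. The log2 fold change of *Mest* was -0.22 (standard error 0.25), and 0.03 (0.15) without NTC replicate 1. Its 3′ end meets the antisense gene *Copg2*, which shares 23.1% of its exon bases.

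*Igf2* and *Dlk1* did not pass edgeR's filter on low counts, so 8 of the 10 genes entered the fit and these 2 have no fold change. *Igf2* had 1 read in all, in NTC replicate 4. A count of 3 over the group, the limit that a count of 0 allows, is 0.0229 CPM in KO tumors. This limit covers counting error only, and it does not bound *Igf2* itself. A gene model on the same strand, *Gm49394*, shares 62.8% of the exon bases of *Igf2*, and reads on shared bases are set aside as ambiguous under the default rule of HTSeq. The annotation and settings the authors used are not given in the sources used here, so how many *Igf2* reads were set aside cannot be known from these counts. *Dlk1*, whose exons are shared with no other gene, had 7 reads in all, 5 of them in KO replicate 4, 1 in KO replicate 3 and 1 in NTC replicate 3. With *Igf2* and *Dlk1* at these levels, the planned correlations within the *H19* and *Dlk1* loci could not be computed.

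Of the 8 genes in the fit, 0 were called higher and 0 lower, where a call needs an adjusted p under 0.05 and an absolute log2 fold change above 1 (edgeR's quasi-likelihood test, Benjamini-Hochberg adjustment). Among all 15821 genes tested over 10 tumors, 0.00632% were called higher and 0.0126% lower. Without NTC replicate 1 the counts were again 0 and 0, beside 0.0124% and 0.0933% of 16078 genes. DESeq2 called 0 of these genes over 10 tumors, and 1, *H19*, over the 9 tumors without a filter. In that run, given all 55401 gene rows, it called 618 genes higher and 136 lower. The median log2 fold change of the 8 genes was 0.14 over 10 tumors and 1.58 without NTC replicate 1, and that of all genes 0.01 and -0.02. Since the list was chosen on this contrast, the counts and medians describe it and are no test of it.

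**Figure D2:**
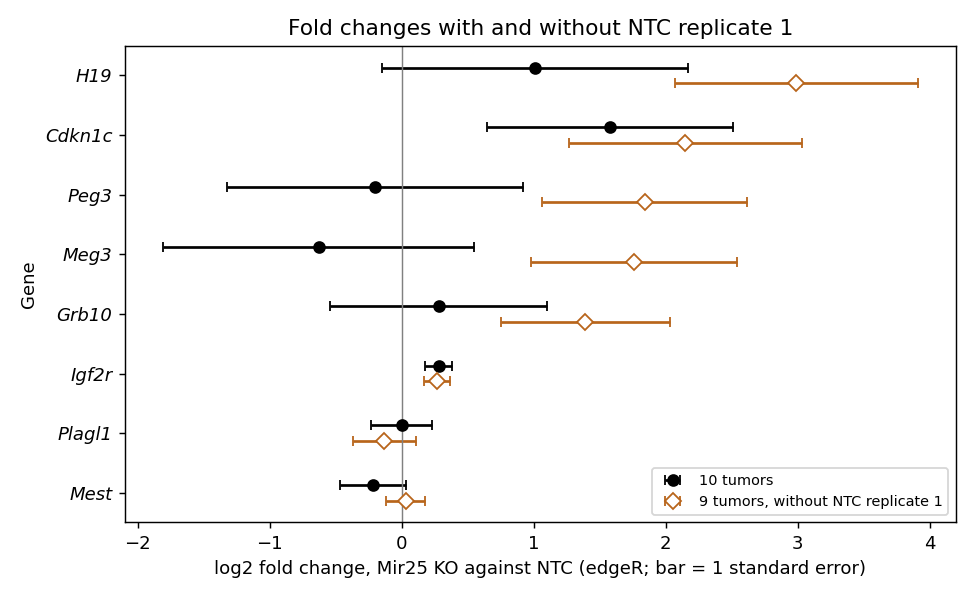
The log2 fold change of *Mir25* KO against NTC tumors from edgeR is on the x axis, with bars of 1 standard error, for the 8 genes that passed the filter. Black circles are all 10 tumors and open diamonds the 9 without NTC replicate 1: *Peg3* and *Meg3* cross 0, from -0.20 to 1.84 and from -0.63 to 1.76, while *Igf2r* stays at 0.28 and 0.27.

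The spread between tumors was among the widest of the genes tested for 5 of the 8 members fitted. Over all 10 tumors the biological coefficient of variation estimated by edgeR was 1.17 for *H19*, 1.19 for *Meg3*, 1.15 for *Peg3*, 0.942 for *Cdkn1c* and 0.848 for *Grb10*, each higher than in at least 95.7% of all genes tested. For *Igf2r* it was 0.157, higher than in 12.5% of genes. *Mest* and *Plagl1* lay near the middle, at 0.300 and 0.278.

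KO replicate 5 and NTC replicate 1, the tumors highest in *H19*, also had the highest fibroblast and leukocyte markers, a comparison made after the values were seen. KO replicate 4 went against this order, with the fourth highest *H19* level (7.82 CPM) and the third lowest fibroblast sum. Summed over 10 fibroblast markers, such as *Col1a1* and *Pdgfra*, the level was 3265, 2979, 1384, 1112 and 6146 CPM in KO tumors and 6862, 74.1, 1842, 280 and 1266 CPM in NTC tumors. All 10 of these markers were detected, and all 10 had a log2 fold change above 0 over the 10 tumors. Of them 0 had an adjusted p under 0.05 in edgeR's test, and the median log2 fold change of all genes was 0.01. The leukocyte markers, 10 genes such as *Ptprc* and *Csf1r*, summed to 893 to 5489 CPM in KO tumors, 291 to 1176 CPM in NTC replicates 2 to 5 and 4563 CPM in NTC replicate 1. The 7 melanoma cell markers, all detected, summed to 11770 to 19340 CPM in KO tumors and 18960 to 21330 CPM in NTC replicates 2 to 5, with 11280 CPM in NTC replicate 1. In bulk tumors fewer cells of a type and less RNA per cell cannot be told apart.

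**Figure D3:**
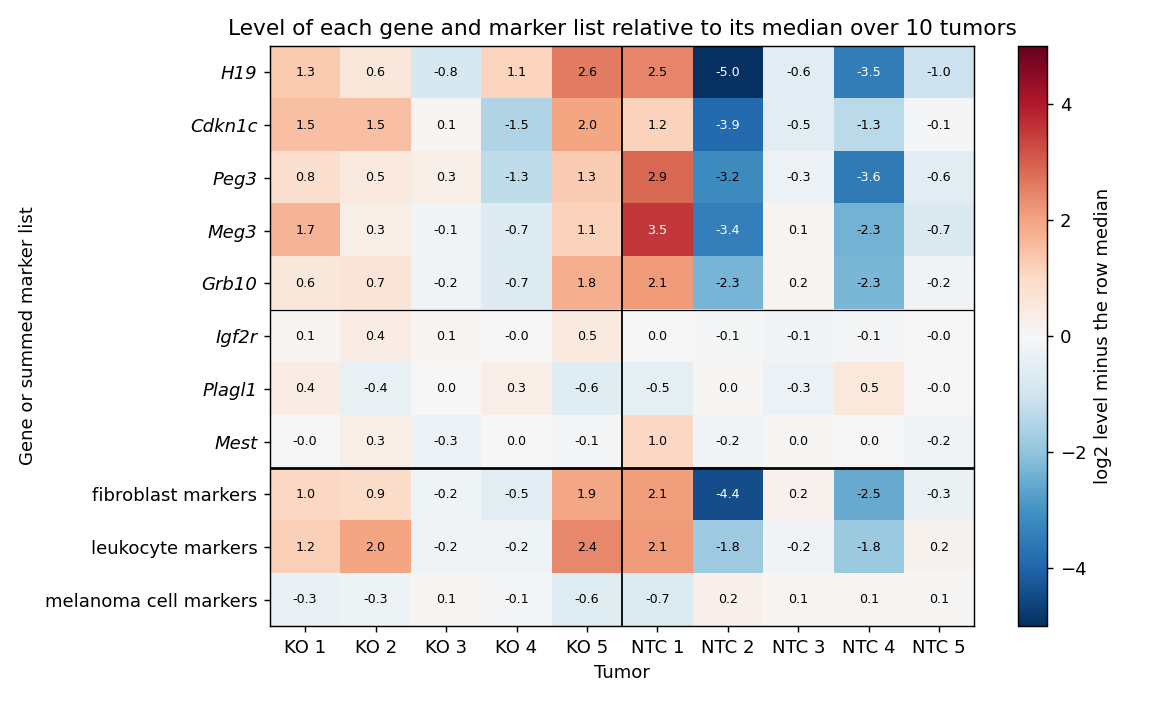
Each cell gives a log2 level in 1 tumor (columns) minus the median of its row, for 8 genes, as log2(CPM + 0.05), and for 3 summed marker lists. The upper 5 genes follow the fibroblast and leukocyte rows, with low values in NTC 2 and NTC 4 and high values in KO 5 and NTC 1, and *Igf2r*, *Plagl1* and *Mest* stay closer to their medians, apart from *Mest* in NTC 1 (19.3 CPM against a median of 9.35).

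Whether the genes moved together within the groups was tested on log2 CPM after subtracting each group's mean, which leaves the KO against NTC difference out. Each pair was tested with two-sided exact permutations of the tumors within their groups, 14400 in all, and p was adjusted over the 15 relations computed. The relations were chosen after the values were seen, in place of the planned pairs, so their p-values are a description. How many of all genes follow *H19* as closely was not counted. *H19* rose with *Grb10* (r = 0.930, exact p = 0.00236, adjusted p = 0.00590; rho = 0.939, exact p = 0.00340, adjusted p = 0.00729). With *Meg3* its r was 0.920 (exact p = 0.00319, adjusted p = 0.00684) and rho 0.855 (exact p = 0.00701, adjusted p = 0.0131). With *Peg3* r was 0.881 (exact p = 0.00972, adjusted p = 0.0182) and rho 0.939 (exact p = 0.00174, adjusted p = 0.00434). With its neighbour on chromosome 7, *Cdkn1c*, r was 0.770 (exact p = 0.0189, adjusted p = 0.0286) and rho 0.758 (exact p = 0.0135, adjusted p = 0.0226). These 4 genes lie on 3 chromosomes, so the genes that moved with *H19* were not confined to its locus. Without NTC replicates 2 and 4, the tumors farthest from the median of *H19*, the values of r were 0.841, 0.817, 0.733 and 0.529 for *Grb10*, *Meg3*, *Peg3* and *Cdkn1c*. Without NTC replicate 1 they were 0.859, 0.830, 0.733 and 0.680.

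*H19* and *Plagl1* moved in opposite directions in these tumors, but the relation did not pass the adjustment (r = -0.568, exact p = 0.0868, adjusted p = 0.1002; rho = -0.648, exact p = 0.0480, adjusted p = 0.0654), and r was -0.432 without NTC replicates 2 and 4. *Igf2r* had r = 0.386 with *H19* (exact p = 0.0988, adjusted p = 0.105; rho = 0.333, exact p = 0.290, adjusted p = 0.311), and 0.460 without the same 2 tumors. *Mest* had r = 0.710 (exact p = 0.0694, adjusted p = 0.0868; rho = 0.430, exact p = 0.271, adjusted p = 0.311) and 0.717 without those tumors. For *Mest* r was 0.207 once NTC replicate 1 was left out.

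The same 5 genes rose with the fibroblast score, the mean log2 CPM of the 10 fibroblast markers. For *Grb10* r was 0.975 (exact p = 0.000139, adjusted p = 0.00208) and rho 0.988 (exact p = 0.000417, adjusted p = 0.00312). For *H19* r was 0.950 (exact p = 0.00118, adjusted p = 0.00354) and rho 0.964 (exact p = 0.00160, adjusted p = 0.00434). *Peg3*, *Meg3* and *Cdkn1c* had r of 0.943, 0.942 and 0.905, with adjusted p of 0.00260, 0.00260 and 0.00208 from the same exact test, and rho of 0.976, 0.903 and 0.842. Without the 2 tumors farthest from each gene's median, r was 0.989 for *Grb10*, 0.858 for *H19*, 0.922 for *Peg3*, 0.894 for *Meg3* and 0.807 for *Cdkn1c*. *Plagl1* fell with this score by rho (-0.721, exact p = 0.0183, adjusted p = 0.0274) and missed the threshold by r (-0.645, exact p = 0.0369, adjusted p = 0.0503), with r of -0.528 without 2 tumors. For *Igf2r* it was r that passed (0.491, exact p = 0.0191, adjusted p = 0.0286) and rho that missed (0.442, exact p = 0.146, adjusted p = 0.182), with r of 0.578 without 2 tumors. *Mest* had r = 0.660 (exact p = 0.105, adjusted p = 0.105) and rho = 0.382 (exact p = 0.350, adjusted p = 0.350), and r = 0.215 without 2 tumors. All of these values share the total of their library, and the part of fibroblasts, leukocytes or other cells in them was not tested.

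**Figure D4:**
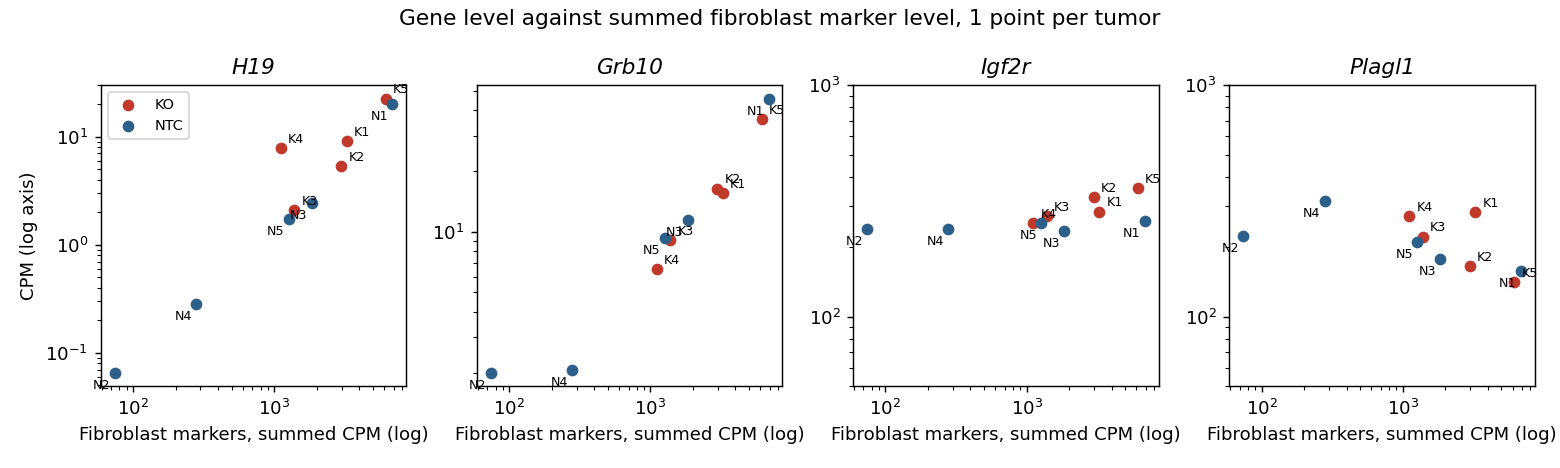
Each point is 1 tumor (K, KO; N, NTC; with the replicate number), with summed CPM of the fibroblast markers on a logarithmic x axis and the gene's CPM on a logarithmic y axis. *H19* and *Grb10* climb from NTC replicate 2 (74.1 CPM of markers) to KO replicate 5 and NTC replicate 1, *Igf2r* is nearly level and *Plagl1* declines.

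Set against the fibroblast markers, *H19* still differed among tumors. Per 1000 CPM of these markers it was 2.78, 1.80, 1.51, 7.03 and 3.66 CPM in KO replicates 1 to 5 and 2.95, 0.887, 1.34, 1.02 and 1.37 CPM in NTC replicates 1 to 5. All 5 KO tumors lay above NTC replicates 2 to 5, and KO replicates 1, 2 and 3 lay below NTC replicate 1. KO replicate 4, the highest by this measure, also had the highest markers of skeletal muscle, a tissue in which *H19* is known to persist, and held 5 of the 7 *Dlk1* reads. Its 10 muscle fibre markers summed to 213 CPM. The next highest sum, 42.5 CPM, was that of KO replicate 3, which had the lowest *H19* of the KO tumors both per fibroblast marker and in CPM (2.09 CPM). The other KO tumors had 2.05 to 6.76 CPM of muscle fibre markers and the NTC tumors 1.34 to 6.47 CPM. Of these markers 2 of 10 passed the count filter, and 0 of the 10 were at 0 reads over all tumors. *Grb10* per 1000 CPM of fibroblast markers ranged from 4.75 to 6.55 CPM in KO tumors and from 6.24 to 27.0 CPM in NTC replicates 2 to 5, with 6.68 CPM in NTC replicate 1. The 27.0 CPM was NTC replicate 2 alone, which had 74.1 CPM of markers, and without it the highest value was 7.42 CPM. *Meg3* overlapped, at 0.304 to 0.854 and 0.384 to 0.497 CPM, with 1.47 CPM in NTC replicate 1.

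With the fibroblast score as a covariate, edgeR's log2 fold change over 10 tumors came to 0.94 for *H19*, 0.55 for *Cdkn1c*, -0.30 for *Grb10*, 0.22 for *Igf2r* and 0.24 for *Plagl1*. For *Mest*, *Peg3* and *Meg3* it was -0.40, -0.27 and -0.57, against -0.22, -0.20 and -0.63 without a covariate. The values of *Cdkn1c* and *Grb10* were lower than without the score, and that of *Grb10* changed sign. The leukocyte score as a covariate gave like values, 0.59 for *Cdkn1c*, -0.19 for *Grb10* and -0.38 for *Mest*, and 1.11 for *H19*. With the skeletal muscle score as a covariate the values were 0.99 for *H19*, 1.96 for *Cdkn1c* and 0.34 for *Grb10*, against 1.01, 1.58 and 0.28 without a covariate.

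Among 13908 genes with a mean of at least 1 CPM, the 5 whose log2 CPM was most like that of *H19* over the 10 tumors were *Pcdhgc3* (Pearson's r 0.985), *Postn* (0.971), *Flnc* (0.971), *Creb3l1* (0.970) and *C1qtnf1* (0.969). *Postn* encodes periostin, a matrix protein of activated fibroblasts, and is also 1 of the fibroblast markers. It had 360 ± 242 CPM in KO tumors (SD, n = 5), 92.2 ± 87.1 CPM in NTC replicates 2 to 5 (SD, n = 4) and 708 CPM in NTC replicate 1. The likeness over 9 tumors without NTC replicate 1 was 0.982, 0.967, 0.969, 0.971 and 0.964 in the same order. For *Igf2* no such ranking was made, as it had 1 read.

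Other imprinted genes were compared as a list of 59, of which 58 had a row and 34 passed the filter. Over 10 tumors 0 were higher and 1 was lower in KO tumors at an unadjusted p under 0.05, where 3.99% and 4.85% of all genes were, and 0 passed the adjusted threshold in edgeR's test. Without NTC replicate 1, 4 were higher and 1 lower, where 12.0% and 8.10% of all genes were, and again 0 passed. The median of their log2 fold changes was 0.07 in the 10 tumors and 0.10 in the 9. The lower gene was *Ddc*, dopa decarboxylase, at 0.198 ± 0.162 CPM in KO and 0.859 ± 0.598 CPM in NTC tumors (SD, n = 5 each), which overlapped in 1 tumor of each group. In edgeR's fit it fell by 1.98 on the log2 scale (standard error 0.60, adjusted p = 0.322), and by 1.58 (0.54) without NTC replicate 1. The next by p were *Gnas* (log2 fold change -0.15, adjusted p = 0.598 by edgeR), which encodes the stimulatory G protein alpha subunit, and *Blcap* (-0.16, adjusted p = 0.609 by edgeR). Without NTC replicate 1 both were at -0.18, with adjusted p of 0.255 and 0.279.

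The imprinted genes *Rian*, *Ndn* and *Mirg* of this list, named after their values were seen, were lowest in NTC replicates 2 and 4, as *H19* was. *Rian*, a non-coding RNA downstream of *Meg3*, had 10.1, 5.05, 2.29, 3.97 and 12.4 CPM in KO tumors and 23.0, 0.689, 5.58, 0.732 and 2.77 CPM in NTC tumors. *Ndn*, which encodes necdin, had 0.793 to 2.98 CPM in KO tumors, 4.85 CPM in NTC replicate 1, 0 in NTC replicate 2 and 0.0407 in NTC replicate 4. *Mirg*, another non-coding RNA of the *Meg3* domain, had 0.505 to 2.31 CPM in KO tumors, 7.27 CPM in NTC replicate 1, 0 in NTC replicate 2 and 0.244 in NTC replicate 4. NTC replicate 1 was the highest tumor for these 3 genes, whereas KO replicate 5 was the highest for *H19*. How many genes of the list were lowest in NTC replicates 2 and 4 was not counted. *Gnas* and *Ddc*, also of the list, were lowest in KO replicate 5 (658 and 0.0445 CPM), and *Blcap* in KO replicate 4 (26.8 CPM). The log2 fold changes of *Rian*, *Ndn* and *Mirg* were 0.09, 0.44 and -0.69 over 10 tumors and 1.42, 1.77 and 0.89 without NTC replicate 1, with adjusted p of 0.280, 0.292 and 0.571 by edgeR in the latter. *Rtl1*, on the paternally expressed side of the same domain, had 0 reads.

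Genes of the IGF pathway around *Igf2r* were compared as a list of 29, of which 25 passed the filter. Over 10 tumors 4 were higher and 1 lower at an unadjusted p under 0.05, beside 3.99% and 4.85% of all genes, and 0 passed the adjusted threshold in edgeR's test. Without NTC replicate 1, 7 were higher and 2 lower, beside 12.0% and 8.10% of all genes. *Pik3ca*, the catalytic subunit of PI 3-kinase, had 125 ± 4.62 CPM in KO and 104 ± 8.46 CPM in NTC tumors (SD, n = 5 each; log2 fold change 0.25, adjusted p = 0.295 by edgeR, and 0.25, adjusted p = 0.175, without NTC replicate 1). *Rps6kb1*, the S6 kinase, had 111 ± 4.16 and 129 ± 6.84 CPM (log2 fold change -0.22, adjusted p = 0.308 by edgeR, and -0.28, adjusted p = 0.139, without NTC replicate 1). The other ligand of the pathway, *Igf1*, named after its values were seen, had 19.2 to 107 CPM in KO tumors, 4.47 to 15.4 CPM in NTC replicates 2 to 5 and 92.5 CPM in NTC replicate 1. KO replicates 3 and 4 were the lowest KO tumors and still lay above NTC replicates 2 to 5. edgeR gave a log2 fold change of 1.30 over 10 tumors (adjusted p = 0.685) and of 2.63 over 9 (adjusted p = 0.109). The signaling receptor *Igf1r* had 36.1 ± 10.5 CPM in KO and 47.7 ± 13.1 CPM in NTC tumors (SD, n = 5 each), which overlapped (log2 fold change -0.40, and -0.47 without NTC replicate 1).

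Regulators that keep or read imprints were compared as a list of 20, of which 17 passed the filter. At an unadjusted p under 0.05, 0 were higher and 1 lower over 10 tumors, where 3.99% and 4.85% of all genes were, and the counts were again 0 and 1 over 9, where 12.0% and 8.10% of all genes were. A count of 1 in 17 is near these shares. The lower gene was *Zfp445*, a zinc finger protein that maintains methylation at imprinted control regions. It had 116, 120, 112, 113 and 118 CPM in KO tumors and 137, 150, 151, 170 and 143 CPM in NTC tumors. The groups did not overlap, NTC replicate 1 included. Nor did they overlap for *Gnas*, *Pik3ca* and *Rps6kb1*, named above, and the share of all genes without overlap was not counted. By edgeR the value of *Zfp445* for KO against NTC was -0.38 on the log2 scale with all 10 tumors (standard error 0.07, adjusted p = 0.138) and -0.44 with 9 (0.07, adjusted p = 0.0546), so it passed in neither. *Tet1* and *Hells*, the next by p, had log2 fold changes of -0.61 and 0.27 (adjusted p = 0.714 and 0.686 by edgeR), and of -0.63 and 0.18 without NTC replicate 1 (adjusted p = 0.461 and 0.612).

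Other cyclin-dependent kinase inhibitors were compared beside *Cdkn1c*. Of 7 listed genes 5 passed the filter, 4 of them with a fold change below 0, and 2 were lower at an unadjusted p under 0.05 over 10 and over 9 tumors, beside 4.85% and 8.10% of all genes, with 0 past the adjusted threshold in edgeR's test. The gene above 0, *Cdkn1a*, which encodes p21, had a log2 fold change of 0.11 over 10 tumors and 0.34 over 9. *Cdkn1b*, which encodes p27, had 116 ± 13.6 CPM in KO and 144 ± 22.04 CPM in NTC tumors (SD, n = 5 each; log2 fold change -0.32, adjusted p = 0.492 by edgeR, and -0.42, adjusted p = 0.148, without NTC replicate 1). *Cdkn2d* and *Cdkn2c*, of the INK4 family, had log2 fold changes of -0.32 and -0.23 (adjusted p = 0.511 and 0.734 by edgeR), and of -0.41 and -0.36 without NTC replicate 1 (adjusted p = 0.181 and 0.278).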

How the data were processed

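Bulk RNA sequencing of 10 B16F10 tumors (5 *Mir25* KO, 5 NTC) was analysed from the deposited counts, whole reads per gene that the authors made without normalization. The submitters' processing notes name FastQC, Trimmomatic, HISAT2, HTSeq and mm10. The strand setting and annotation of the counting are not given in the sources used here. Groups and replicate numbers came from the sample titles. Gene models came from GENCODE M21 (GRCm38), which matched 53171 of 55291 symbols. Totals were 11896643 to 28682130 reads per tumor, without molecular identifiers, and p-values rest on variation from tumor to tumor.

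Counts were tested with edgeR 4.0.16's quasi-likelihood test (R 4.3.3; the main test) with TMM factors and filterByExpr; calls need an adjusted p under 0.05 and an absolute log2 fold change above 1. log2 CPM used a prior count of 2. A standard error is the size of the fold change over the root of its F statistic. Permutation tests and figures used Python 3.11.15, numpy 2.4.6, scipy 1.17.1, pandas 2.3.3 and matplotlib 3.10.9. Alternatives were DESeq2 1.42.0, RLE factors, 2 other filters, the replicate number as a block, marker scores as covariates and each tumor left out. Procedures were tested on simulated data. The members, lists and markers were chosen with earlier results of these data known. Named genes are all members, the 3 of each list with the lowest p or any past the adjusted threshold, and the 5 most like *H19*. The result of 1 gene of the IGF list is not reported here. Markers of endothelial cells, keratinocytes, adipocytes and muscle progenitors were measured and are given among the other observations.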

Additional observations from a re-analysis of the deposited data

Results flagged for a closer look

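In 36 checks of 1 group of 5 tumors each, over the imprinted genes, the marker lists and the library totals, 4 values lay far from the rest of their group, where about 1 in 20 is expected by chance. The 4 values come from NTC replicate 1. In it the *Mest* level was 4.27 on the log2 CPM scale, against 3.08 to 3.28 in the other NTC tumors. Its melanoma cell markers summed to 11280 CPM, against 18960 to 21330 CPM. Its skeletal muscle fibre markers summed to 6.47 CPM, against 1.34 to 2.07 CPM. Its reads on genes numbered 11896643, against 24145795 to 28682130.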

How the results depend on the processing

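Of the fold changes described, those of *H19*, *Cdkn1c* and *Igf2r* stayed above 0 under every alternative run, from 0.38 to 3.04, from 0.55 to 2.21 and from 0.19 to 0.40. *Peg3* and *Meg3* moved past the spread between tumors without NTC replicate 1, to 1.84 and 1.76, and to 1.89 and 1.80 with DESeq2 over those 9 tumors without a filter. *Grb10* ran from -0.30 to 1.43. With at least 10 counts in every tumor *H19*, *Cdkn1c*, *Peg3* and *Meg3* could not be fitted. A fold change of *Igf2* and correlations with *Igf2* or *Dlk1* were not run for lack of reads. With a prior count of 0.5, chosen with the correlations after seeing the data, all 15 relations kept their sign and their side of the threshold.

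Over 10 tumors edgeR called 1 gene higher and 2 lower. DESeq2 called 24 and 72, DESeq2 over 9 tumors 618 and 136, the filter of at least 10 counts 0 and 6, the leukocyte score 4 and 7, and the muscle score left 0 lower. Leaving out 1 tumor gave 1 to 2 higher and 0 to 15 lower. Of the other imprinted genes, 1 was under an unadjusted p of 0.05; DESeq2 gave 3, no filter 3, the filter of 10 counts 0, the fibroblast score 4, the leukocyte score 3, the muscle score 4, DESeq2 over 9 tumors 10, and leaving out 1 tumor 1 to 5. Of the IGF genes there were 5, with 9 under the leukocyte score, 10 by DESeq2 over 9 tumors and 4 to 9 without 1 tumor. Over all genes the number under that p moved too, from 1400 in the main fit to 1596 by DESeq2 and 3591 without a filter. It was 1248 with the filter of 10 counts, and 1664, 1945 and 1982 with the fibroblast, leukocyte and muscle scores. DESeq2 over 9 tumors gave 4130 genes, and leaving out 1 tumor 996 to 3230. The cause of these shifts was not tested.

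The labels do not say whether the replicate numbers pair the tumors. Same-numbered tumors correlated from -0.287 to 0.633, and 2 of 5 KO tumors were closest to their own number, which does not settle it. With the replicate number as a block 1 gene was higher and 0 lower. Under an unadjusted p of 0.05 were 2 other imprinted genes, 7 IGF genes and 1628 genes in all, against 1400 in all in the main fit. With this block *H19* was at 2.47, *Grb10* at 0.97, and *Peg3* and *Meg3* turned above 0, to 1.32 and 0.96. Leaving out KO replicate 4 also put *Peg3* above 0, at 0.05.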

Other observations

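Endothelial markers summed to 147 to 206 CPM in KO tumors, 117 to 172 CPM in NTC replicates 2 to 5 and 253 CPM in NTC replicate 1. Adipocyte markers, of a tissue in which *Mest* is known to be expressed, summed to 27.5 to 144 CPM in KO tumors, 8.82 to 62.1 CPM in NTC replicates 2 to 5 and 179 CPM in NTC replicate 1. Keratinocyte markers summed to 34.5 CPM in KO replicate 3 and to at most 8.04 CPM in the other 9 tumors. Markers of muscle progenitors or newly formed fibres, cells in which *H19* and *Igf2* are known to be high, summed to 0.133 to 0.472 CPM in KO tumors and 0.0347 to 0.221 CPM in NTC replicates 2 to 5, with 4.18 CPM in NTC replicate 1, and 0 of these 6 genes passed the count filter.

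Separate rows for the miRNAs of these loci were nearly empty. *Mir483* in *Igf2* and *Mir127*, *Mir433* and *Mir770* near *Meg3* had 0 reads, and *Mir335* in *Mest* had 4 over all tumors.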
